A study of Danio rerio with 15 samples.

Results

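Of 15 RNA-seq libraries of whole zebrafish larvae, 3 held little messenger RNA of the alpha globin hbaa1 (ENSDARG00000097011), and they are described here against the other 12. A library was taken as hbaa1-poor when hbaa1 made up less than 400 of every 1000000 counts (counts scaled to a total of 1000000 are CPM). This rule chose Low 5, High 4 and High 5, that is 0 of 5 Control, 1 of 5 Low and 2 of 5 High libraries. The last library inside the limit was Low 5 at 278 CPM and the first outside it was Control 2 at 726 CPM.

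The larvae were wild-type F1 offspring collected at 5 days post-fertilization (dpf). Their parents (F0) had eaten blackworms, Lumbriculus variegatus, for 60 days at 3.5% of body weight. The worms had stood for 14 days in water without sodium arsenite (Control) or with 2.5 mg/L (Low group) or 5.0 mg/L of it (High group), and the Control worms held less than 0.05 µg/g arsenic. High worms carried 72.47 µg/g dry weight, and for Low worms the sample labels, the treatment protocol and the design text give 32.4, 33.42 and 32.42 µg/g. The embryos of all groups, Control included, were themselves kept in medium without arsenic. The protocol gives 20 whole larvae, which may be the number in each pool, and the sources used here do not tie a library to a clutch or to a parent, so the p-values measure the spread between these libraries.

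Hemoglobin is a tetramer of alpha and beta globin chains, each holding a heme, and red cells are made to carry it. Zebrafish switch globins as they grow: embryonic chains such as those of the hbae genes are replaced by larval and adult chains such as that of hbaa1. Heme synthesis, the membrane skeleton of the red cell and factors such as klf1 and gata1a serve the same cells. Because whole larvae were sequenced, fewer cells of a type and less of a transcript in each cell cannot be told apart in any value below.

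hbaa1 ran from 3.83 CPM in High 4 to 245 in High 5 and 278 in Low 5. The 5 Control libraries held 1977, 726, 732, 1125 and 1032 CPM in the order of their numbers. Low 1 to 4 held 1211, 864, 1448 and 1727 CPM, and High 1 to 3 held 2422, 1458 and 2575 CPM. The median of the 12 other libraries was 1329 CPM, so High 4 lay 347-fold, High 5 5.43-fold and Low 5 4.78-fold below it. High 4 is therefore a different case from High 5 and Low 5, whose CPM of hbaa1 lay close to one another. Against the median of the other libraries of their own diet, High 5 lay 9.89-fold, Low 5 4.78-fold and High 4 633-fold lower. These values chose the libraries and no test is made of them.

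**Figure D1:**
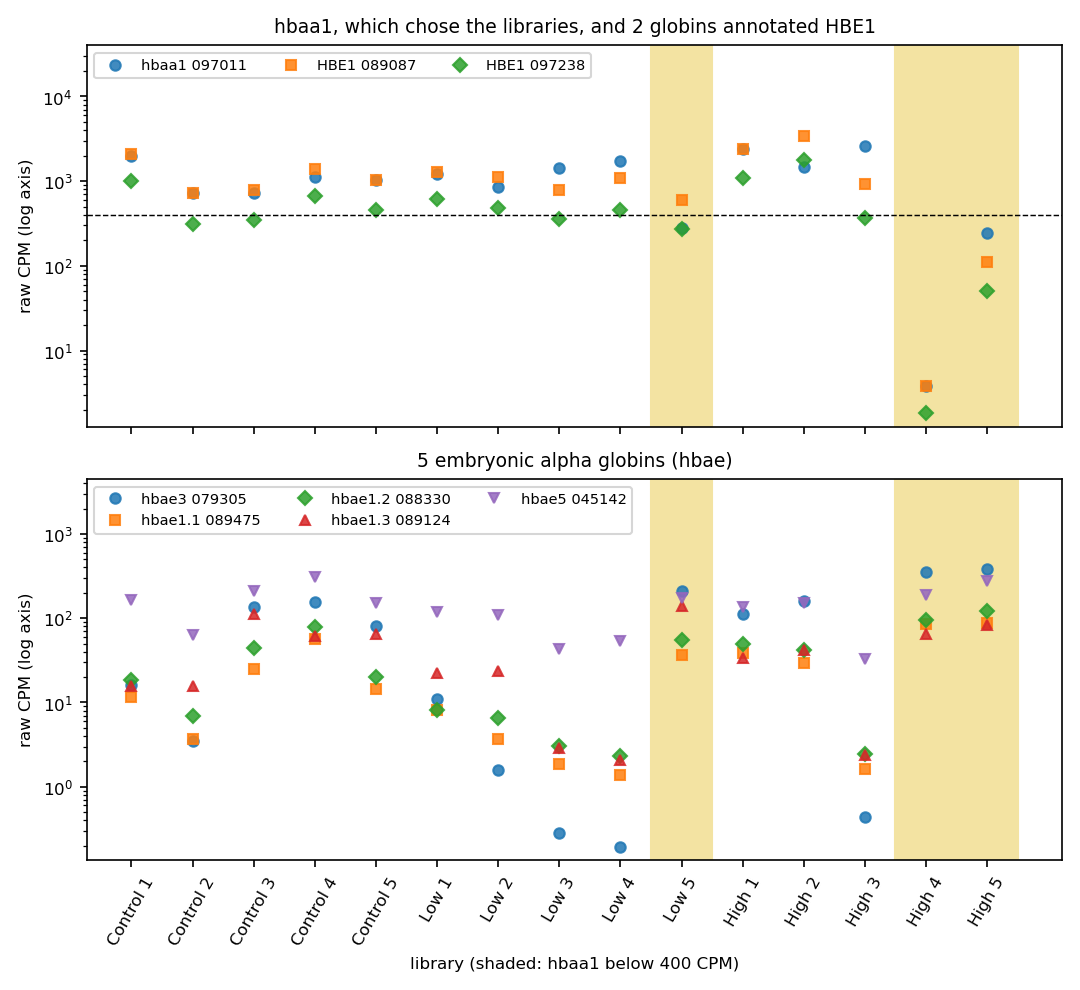
Raw CPM (log axis) of hbaa1 and 2 globins annotated HBE1 (upper panel) and of 5 embryonic alpha globins (lower panel) in each of the 15 libraries; points are single libraries, the dashed line is the 400 CPM limit and shaded columns are the hbaa1-poor libraries. The upper 3 genes are low in the shaded libraries, while hbae3 is higher there than in the other 12.

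The globins did not move as a block. A pair of beta-type globins annotated HBE1 were low together with hbaa1. ENSDARG00000089087 stood at 595 in Low 5, 3.83 in High 4 and 112 in High 5, against 725 to 3429.8 with a median of 1100.1 in the others (raw CPM). ENSDARG00000097238 stood at 271 in Low 5, 1.84 in High 4 and 50.1 in High 5, against 308 to 1766 with a median of 470.2 in the others. For both genes all 3 hbaa1-poor libraries lay below every other library, and High 4 was again the lowest.

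The embryonic alpha globin hbae3 (ENSDARG00000079305) went the other way. It stood at 209 in Low 5, 356 in High 4 and 379.6 in High 5 raw CPM, against 0.195 to 158 with a median of 13.6 in the others, and here all 3 hbaa1-poor libraries lay above all 12. hbae1.1 (ENSDARG00000089475) held 36.9 in Low 5, 86.4 in High 4 and 86.6 in High 5, against 1.36 to 56.2 with a median of 9.78 in the others, and Control 4 and High 1 lay above Low 5. hbae1.2, hbae1.3 and hbae5 also overlapped between the groups, and so did HBE1 ENSDARG00000087390, with 116 in Low 5, 199 in High 4 and 257 in High 5 against 1.77 to 165 with a median of 15.2 in the others. hbaa2 and hbae4 were low everywhere, at no more than 0.497 and 6.73 CPM. Globin copies are nearly identical in sequence, so how the reads were split between IDs is uncertain.

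Summed over all 16 globin genes, the raw level was 2193 CPM in Low 5, 1405 in High 4 and 1991 in High 5. The other libraries held 1922 to 7378 CPM, with a median of 3412. Shares of single globins follow in part from the choice of libraries by hbaa1 and are given as a description. hbaa1 and the 2 HBE1 genes, which were picked here because they were low with it, made up 52.2% of globin counts in Low 5, 20.5% in High 5 and 0.676% in High 4, against 65.7% to 98.5% elsewhere. The 5 hbae genes of the plot made up 27.98%, 47.6% and 56.4% in the same order, against 0.9996% to 18.5%. Globins share the measure that chose the libraries and are left out of every count below.

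The libraries also differed in other ways. The hbaa1-poor libraries held 21168758 to 24194547 counts and the others 23689214 to 59896860. A digestive score, the mean log2 CPM of exocrine pancreas, liver and intestine genes, was 5.37 in Low 5, 5.78 in High 4 and 5.64 in High 5. In the other 12 it ran from -0.79 to 5.87, and Control 2 (5.87), High 2 (5.004) and Control 4 (3.702) came nearest to or above the hbaa1-poor ones. Those 3 libraries were rich in digestive transcripts and not poor in hbaa1, with 726, 1458 and 1125 CPM. Among the Low libraries, Low 5 alone had a score above 2, while Low 1 to 4 ran from -0.79 to 1.39. The first principal component, 47.6% of the variance, put High 4, High 5 and Low 5 at one end in that order, followed by Control 2 and High 2. The main comparison is therefore given within diet and again within diet at equal digestive score. No other Low or High library reached the scores of the hbaa1-poor ones of its diet (at most 1.39 and 5.004). Equal score is thus reached through a slope fitted over all 15 libraries and not through matched libraries of the same diet. Calls and medians at equal score below carry this limit.

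**Figure D2:**
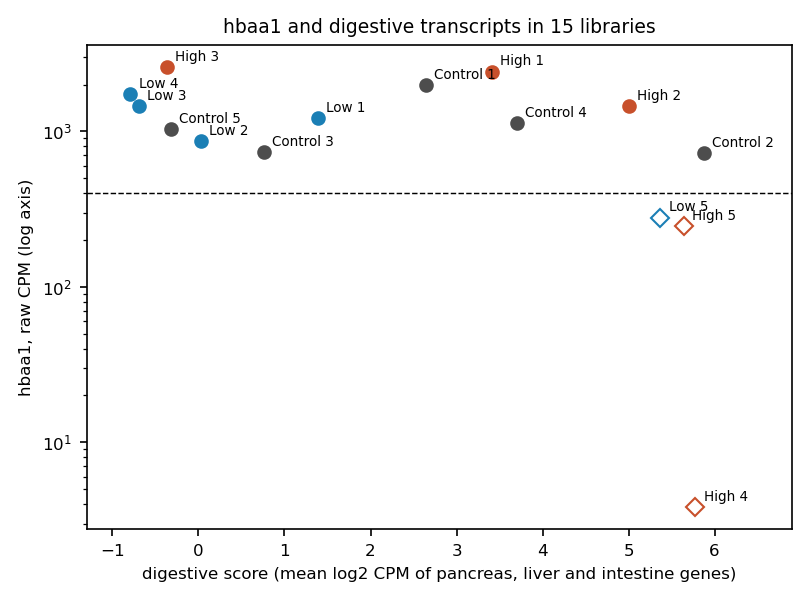
Raw CPM of hbaa1 (log axis) against the digestive score (mean log2 CPM) of each of the 15 libraries; open diamonds are the hbaa1-poor libraries and the dashed line is 400 CPM. Low 5, High 4 and High 5 sit at scores of 5.37 to 5.78. The nearest others, Control 2 at 5.87 and High 2 at 5.004, held 726 and 1458 CPM of hbaa1.

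Outside the globins, many genes differed between the hbaa1-poor libraries and the rest. Within diet, 1805 of 21999 genes passed (edgeR quasi-likelihood test, Benjamini-Hochberg adjusted p below 0.05), which is 8.2% of those tested. Of these, 938 were higher (4.26%) and 867 lower (3.94%), and 674 differed at least 2-fold. For 1374 genes (6.25%) all 3 hbaa1-poor libraries lay outside the range of the other 12, and 871 of the passing genes were among them. The libraries were picked by one gene of the same table, so these p-values say how other genes went along with that choice. No Control library was chosen, so the contrast rests on Low 5 against 4 Low and on High 4 and High 5 against 3 High libraries.

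The number of calls depended on single libraries and on the digestive score. Without High 4, 78 genes passed (0.355%), all of them among the 1805, and without Low 5, 332 passed (1.51%), with 257 among the 1805. Without Low 3, Low 4, High 1 or High 3 the count was 929, 1010, 918 and 679. At equal digestive score 19 of 21872 genes passed (0.0869%), 1 higher and 18 lower, and 18 of the 19 had passed within diet. In this second fit 3934 genes had an unadjusted p below 0.05, and the digestive genes themselves are not counted. In the fit within diet 5948 of 21999 genes (27.0%) had an unadjusted p below 0.05. Folds and calls are given below from the fit within diet unless stated, and levels are CPM scaled by TMM factors. A lone number in brackets after a gene symbol is its log2 fold change. The part of depth in these results was not tested.

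High 4 was the most extreme of the 3 libraries for most of these genes. It was the lowest of the 3 for 605 of the 867 lower genes (69.8%) and the highest for 547 of the 938 higher ones (58.3%). High 5 held that place for 129 and 119 genes, and Low 5 for 133 and 272. Among the 867 lower genes Low 5 lay below all 12 other libraries for 636, High 5 for 671 and High 4 for 782. Among the 938 higher genes Low 5 lay above all 12 for 715, High 5 for 492 and High 4 for 773. These genes passed because the 3 libraries differed, so the counts describe them and test nothing.

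Among non-globin red cell genes, some of the membrane and its skeleton fell, and none of those of heme synthesis passed. Of 18 membrane and skeleton genes tested, 5 fell and 0 rose, with a list median of -0.26 (log2) against -0.0021 for all genes. epb41b (ENSDARG00000029019), protein 4.1 of the membrane skeleton, stood at 18.8 in Low 5, 11.5 in High 4 and 20.5 in High 5, against 20.4 to 43.2 with a median of 33.6 in the others (log2 fold change -1.12, SE 0.23, adjusted p = 0.0167). Low 5 and High 4 lay below all others and High 5 lay just above the lowest of them, Control 3. cahz (ENSDARG00000011166), a carbonic anhydrase of zebrafish red cells, stood at 143 in Low 5, 94.4 in High 4 and 146 in High 5, against 131 to 260.0 with a median of 232 in the others (log2 fold change -0.87, SE 0.19, adjusted p = 0.0195). kel (ENSDARG00000076950), the Kell blood group protein, held 1.68 in Low 5, 0.789 in High 4 and 1.88 in High 5, against 1.78 to 7.43 with a median of 2.95 in the others (log2 fold change -1.82, SE 0.38, adjusted p = 0.0169). For cahz and kel the groups overlapped through Control libraries alone. The adducin add2 (-0.34) and the dematin DMTN (-1.27) fell as well. None of the 18 passed at equal digestive score, with adjusted p = 0.0668 for epb41b, and without High 4 none passed either.

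Of 18 erythroid factors and enzymes tested, 5 fell and 0 rose (list median -0.36). The list median was -0.15 among Low and -0.55 among High libraries. EPOR (ENSDARG00000090834), the erythropoietin receptor, stood at 2.68 in Low 5, 2.23 in High 4 and 3.15 in High 5, against 2.84 to 7.92 with a median of 5.32 in the others (log2 fold change -1.18, SE 0.26, adjusted p = 0.0209). It passed also at equal digestive score (log2 fold change -1.66, adjusted p = 0.0476) but not without High 4 (adjusted p = 0.106). LMO2, a partner of blood transcription factors, fell (-0.798), as did CREG1 (-1.38) and both IDs annotated BNIP3L, a receptor that removes mitochondria from maturing red cells (-0.801 and -0.31). klf1 (ENSDARG00000017400), the erythroid Kruppel-like factor, did not pass (2.45 in Low 5, 1.67 in High 4 and 3.48 in High 5, against 1.92 to 5.098 with a median of 3.43 in the others, adjusted p = 0.329). gata1a was not among the genes tested, and no level is given for it. hemgn, a nuclear protein of blood cells, held 40.5 in Low 5, 41.3 in High 4 and 31.2 in High 5, against 16.8 to 53.6 with a median of 22.9 in the others, with adjusted p = 0.363. The interval of its log2 difference is wide (SE 0.28 about 0.42). For hemgn the log2 fold change was 1.02 among Low libraries, that is of Low 5 alone, and -0.073 among High libraries.

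Heme synthesis gave 0 calls among 16 genes with edgeR, 1 with DESeq2 and 0 with limma voom (list median 0.33). The list median was 0.52 among Low libraries, where it rests on Low 5 alone, and 0.043 among High libraries. In edgeR 4 of the 16 had an unadjusted p below 0.05, a share near the 27.0% of all genes. alas2 (ENSDARG00000038643), which starts heme synthesis in red cells, held 0.818 in Low 5, 0.696 in High 4 and 1.27 in High 5, against 0.714 to 9.0996 with a median of 1.43 in the others (log2 fold change -0.86, SE 0.74, adjusted p = 0.494). The highest levels were those of Control 1 and Control 2, and the 3 libraries sat in the lower part of the range. UROD, a middle step of the pathway, held 22.8 in Low 5, 21.4 in High 4 and 21.2 in High 5, against 9.88 to 26.9 with a median of 14.6 in the others (adjusted p = 0.224). Its log2 fold change was 0.93 among Low and 0.029 among High libraries. FECH, which inserts the iron, held 3.18 in Low 5, 4.64 in High 4 and 4.18 in High 5, against 1.43 to 6.41 with a median of 2.2999 in the others (adjusted p = 0.514). The anion exchanger SLC4A1 (ENSDARG00000012881), the main membrane protein of red cells, held 66.1 in Low 5, 75.9 in High 4 and 90.6 in High 5, against 33.9 to 204 with a median of 61.4 in the others, with adjusted p = 0.888. In High 4, where hbaa1 was 3.83 CPM, SLC4A1 lay inside the range of all others but below High 1 to 3 (110, 204 and 83.7). Low 5 lay above Low 1 to 4 (36.2 to 46.1). The log2 fold change of SLC4A1 was -0.69 among High and 0.62 among Low libraries, so the pooled value joins opposite directions. The transferrin receptor tfr1a (adjusted p = 0.786), the iron importer SLC25A37 (0.519), TAL1 (0.0929) and NT5C3A (0.331) did not pass. Among 28 genes of iron handling and heme turnover 1 passed, the iron-sensing aconitase ACO1, which rose by 0.71 (log2) but did not pass at equal digestive score, and the heme oxygenase HMOX1 did not pass (adjusted p = 0.143).

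**Figure D3:**
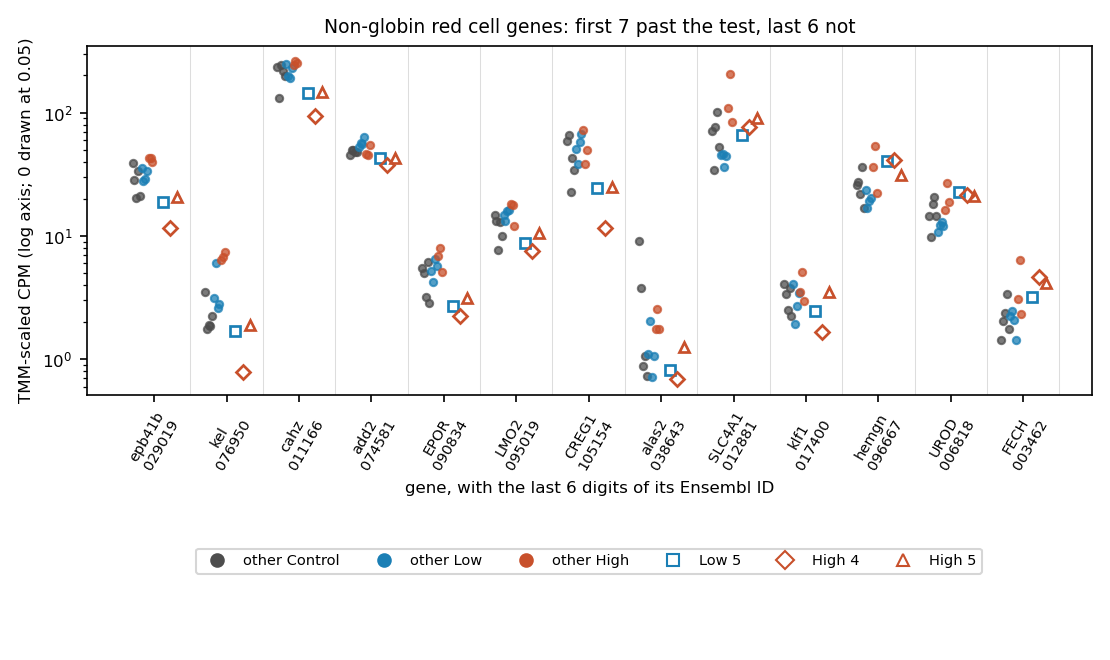
TMM-scaled CPM (log axis) of 13 non-globin red cell genes; filled points are the 12 other libraries coloured by diet and open symbols are Low 5, High 4 and High 5. The first 7 genes passed the test within diet and fell, while the last 6, alas2 to FECH, did not pass.

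Hypoxia genes, which can drive red cell formation through erythropoietin, gave 3 lower and 0 higher of 28, a share near the 8.2% of all genes. The fallers were ADM (-0.64) and both BNIP3L IDs, which are also counted among the erythroid factors above. The hormone gene epoa held 2.45 in Low 5, 2.92 in High 4 and 2.42 in High 5, against 2.07 to 3.34 with a median of 2.45 in the others, with adjusted p = 0.919. Among 15 hematopoietic progenitor genes, IKZF1 (-0.81) and LMO2 fell and MEIS1 (0.37) rose. None of these passed at equal digestive score or without High 4.

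The genes that passed in both fits were singled out after their values were seen. Of the 18, 17 fell and 1 rose. The riser was zgc:85932 (ENSDARG00000098239), with 26.4 in Low 5, 28.1 in High 4 and 27.8 in High 5 against 7.73 to 18.5 with a median of 13.4 in the others (log2 fold change 1.39, SE 0.13, adjusted p = 8.18e-04). The 3 values lay within 2 CPM of each other and above all 12 others, and the gene passed without High 4 (adjusted p = 0.0107) and without Low 5 (adjusted p = 0.00132). opn1mw4 (ENSDARG00000000638), a green-sensitive cone opsin, was the steepest faller of the 18, with 1.36 in Low 5, 0.186 in High 4 and 0.696 in High 5 against 16.3 to 81.5 with a median of 42.4 in the others (log2 fold change -5.84, SE 0.65, adjusted p = 0.00303). Its log2 fold change at equal digestive score was -5.91 (adjusted p = 0.0258). All 3 libraries lay more than 10-fold below the lowest of the others.

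bglapl (ENSDARG00000104467), a paralog of the bone protein osteocalcin, stood at 80.5 in Low 5, 28.7 in High 4 and 38.3 in High 5, against 134 to 288 with a median of 199 in the others (log2 fold change -1.88, SE 0.23, adjusted p = 0.00303). ifi44f1 (ENSDARG00000071361), a relative of an interferon-induced gene, held 1.27 in Low 5, 0.0464 in High 4 and 0.737 in High 5, against 3.69 to 11.6 with a median of 7.42 in the others (log2 fold change -3.66, SE 0.54, adjusted p = 0.00797). In all of these the groups did not overlap. CLEC19A (ENSDARG00000115545), a C-type lectin (-2.12), and DKK3 (ENSDARG00000103591), a secreted protein of the Dickkopf family (-0.78), fell with no overlap too. Like opn1mw4, zgc:85932, bglapl and ifi44f1, both passed without High 4, with adjusted p = 0.028 and 0.0218.

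Several of the remaining both-fit genes are secreted proteins of immunity. The complement genes c4 (-0.85, 15.2 in Low 5, 9.01 in High 4 and 12.3 in High 5 against 16.6 to 28.4 with a median of 23.1 in the others) and c7a (-0.72, 22.7 in Low 5, 15.2 in High 4 and 17.8 in High 5 against 25.3 to 44.9 with a median of 31.8 in the others) fell. The chemokine CXCL12 (ENSDARG00000037116), which guides blood and germ cells, fell by 0.71 on the log2 scale, and its groups overlapped slightly. c4, c7a, CXCL12 and susd1 (-1.34) did not pass without High 4 (adjusted p = 0.0637, 0.124, 0.11 and 0.0784). The 5 further both-fit genes carry no informative name: ENSDARG00000002293 (-2.49), ENSDARG00000096331 (-0.82), ENSDARG00000038587 (-3.002), ENSDARG00000098478 (-1.93) and ENSDARG00000112958 (-1.98), and all 5 fell.

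Lens genes were among the steepest falls. Lens crystallins are the packed proteins that give the lens its clarity. Of 38 tested, 16 fell, 0 rose and 37 had a fold change below 0, with a list median of -0.98. The mean log2 CPM of the list was 5.15 to 6.49 in the hbaa1-poor libraries and 7.29 to 8.52 in the others. CRYBB3 (ENSDARG00000041301) stood at 2.999 in Low 5, 0.696 in High 4 and 1.88 in High 5, against 83.3 to 826 with a median of 279 in the others (log2 fold change -7.81, SE 1.14, adjusted p = 0.00797). crygm4 (ENSDARG00000008219) stood at 4.41 in Low 5, 0.139 in High 4 and 0.942 in High 5, against 80.1 to 675 with a median of 213 in the others (log2 fold change -7.56, SE 1.27, adjusted p = 0.0125). crygm3 (ENSDARG00000078189), one of the more abundant, stood at 82.2 in Low 5, 18.1 in High 4 and 79.6 in High 5, against 307 to 1411 with a median of 679 in the others (log2 fold change -3.65, SE 0.56, adjusted p = 0.00797). In all of these High 4 was lowest and all 3 libraries lay below every other one. crygm6 (-6.08), crygs4 (-5.84), crygs3 (-3.89), CRYBB2 (-3.07) and CRYAB (ENSDARG00000042621, -3.01) fell as well. crygs4 was near the limit of detection, at 0 to 0.227 in the 3 libraries against 0.479 to 16.4 with a median of 1.86 in the others (SE 1.59). crygm6 had 0 counts in High 4, as had cd8a, igic1s1 and ccl27b below, and a count of 0 in that library allows up to 0.139 CPM.

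Not all lens genes shared this to the same degree, since the called folds ran from -1.31 (cryba1l2) to -7.81. The list median at equal digestive score was -0.86 and none of the 38 passed, with adjusted p = 0.0623 for CRYBB3 at a log2 fold change of -7.69. Without High 4, 5 of 38 passed, and without Low 5, 5 of 38. The median was -0.89 among High libraries alone and -1.12 among Low libraries alone, which share no library. The digestive-rich libraries that were not hbaa1-poor held more crystallin: crygm3 was 737 in Control 2, 403 in Control 4 and 473 in High 2.

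Photoreceptor genes fell in part. Of 61 tested, 11 fell and 0 rose, with a median of -0.26. Beside opn1mw4, the green opsin opn1mw3 (-2.197) and the red opsin opn1lw1 (-1.44) fell. PDC (ENSDARG00000011886), phosducin, which binds transducin subunits, stood at 17.5 in Low 5, 7.89 in High 4 and 6.63 in High 5, against 12.06 to 42.6 with a median of 24.4 in the others (log2 fold change -1.17, SE 0.23, adjusted p = 0.0154). Its level in Low 5 lay inside the range of the others. The guanylate cyclase activator GUCA1B (-2.72), the rod channel subunit CNGA1 (-0.83) and rod transducin GNAT1 (-0.73) also fell. Only opn1mw4 of the list passed at equal digestive score, and only it without High 4. In the retinal pigment epithelium list 3 of 17 rose, the carotenoid-cleaving enzymes BCO1 (1.49), BCO2 (0.73) and bco1l (2.297), which are also made outside the eye. None of the 17 passed at equal digestive score, without High 4 or without Low 5.

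Genes of the bone and cartilage list moved in both directions. Of 40 tested, 9 rose, 5 fell and 26 did not pass (list median 0.199). The list has no separate bone and cartilage parts, and the genes are grouped here by direction. Known bone genes were among the 5 that fell. bglap (ENSDARG00000058414), osteocalcin, stood at 5.498 in Low 5, 0.279 in High 4 and 1.68 in High 5, against 23.8 to 183 with a median of 54.9 in the others (log2 fold change -4.97, SE 0.98, adjusted p = 0.0169). COL10A1 (ENSDARG00000101535), a collagen of hypertrophic cartilage and, in fish, of bone-forming cells, stood at 62.02 in Low 5, 16.8 in High 4 and 12.5 in High 5, against 194 to 815 with a median of 288 in the others (log2 fold change -3.69, SE 0.71, adjusted p = 0.0159). spp1 (ENSDARG00000044276), osteopontin, stood at 99.1 in Low 5, 52.3 in High 4 and 60.1 in High 5, against 149 to 379.6 with a median of 214 in the others (log2 fold change -1.61, SE 0.32, adjusted p = 0.0154). No hbaa1-poor library overlapped with the others for any of these. The matrix Gla gene mgp (-2.23) and fgfbp2a (-2.74) completed the 5.

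The 9 that rose are known from cartilage. MATN4 (ENSDARG00000015947), a matrilin of cartilage matrix, stood at 169.8 in Low 5, 253 in High 4 and 175 in High 5, against 36.1 to 125 with a median of 75.9 in the others (log2 fold change 1.34, SE 0.26, adjusted p = 0.0149). The aggrecan acana (1.35), COL2A1 (1.05), COL9A1 (1.504), HAPLN1 (1.42), MATN1 (1.45), epyc (1.25), UCMA (0.86) and the cartilage factor SOX9 (0.59) rose with it. Apart from MATN4 and SOX9 the risers overlapped with the other libraries, as COL2A1 did (669 to 1173 against 227 to 845). The median of the whole list was 0.398 among Low and -0.084 among High libraries. Without Low 5, 7 of the list passed and all 7 were lower, and without High 4 none passed. None passed at equal digestive score, though the log2 fold changes of bglap (-4.72) and MATN4 (1.25) stayed near those within diet.

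In the wider list of extracellular matrix and collagens, 8 of 62 rose and 6 fell (median -0.09). The risers included the cartilage collagens COL9A2 (1.41), col9a3 (1.44) and COL11A1 (1.12). The fallers included COL10A1, the small proteoglycans BGN (-1.65), DCN (-0.8002) and LUM (-0.96), and SPARC (-0.86), a collagen-binding protein of bone. BGN (ENSDARG00000017884) held 16.5 in Low 5, 9.05 in High 4 and 8.19 in High 5, against 25.4 to 64.1 with a median of 31.7 in the others, and all 3 lay below every other library. No gene of this list passed at equal digestive score or without High 4, and 10 passed, all lower, without Low 5.

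**Figure D4:**
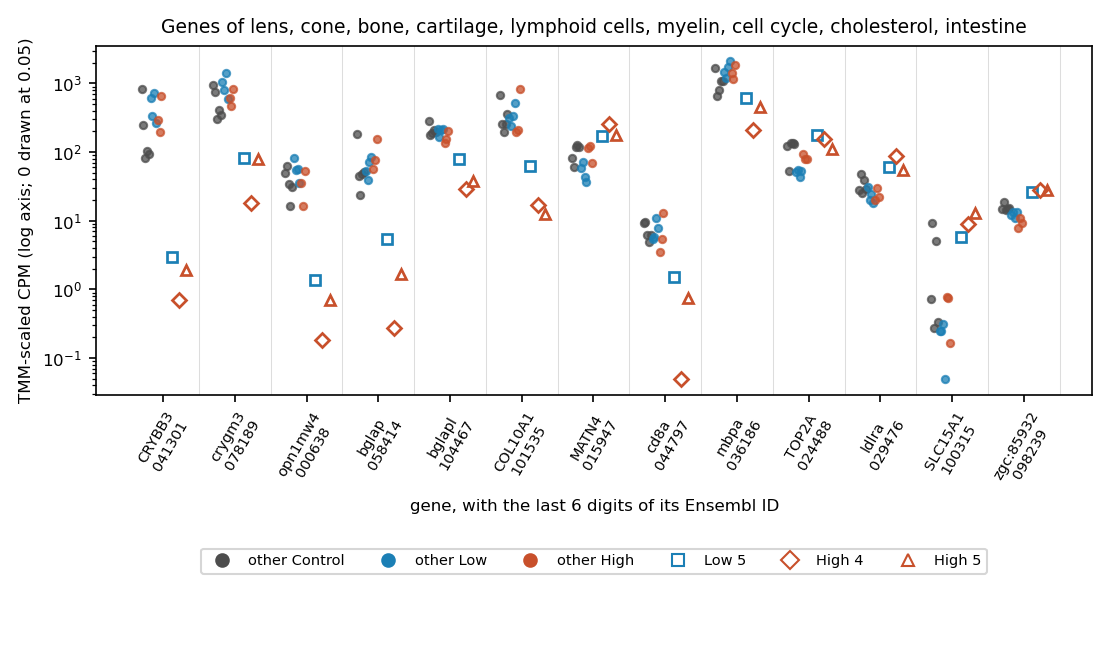
TMM-scaled CPM (log axis, values of 0 drawn at 0.05) of 13 genes of different tissues; filled points are the 12 other libraries coloured by diet and open symbols are Low 5, High 4 and High 5. Crystallins, opn1mw4, the bone genes, cd8a and mbpa are low in the open symbols, MATN4, ldlra and zgc:85932 are high, and TOP2A and SLC15A1 overlap with Control libraries.

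Several lymphoid genes fell. Of 15 tested, 8 fell and 0 rose, with a median of -1.28, and the mean log2 CPM of the list was 0.72 to 1.92 in the hbaa1-poor libraries and 2.38 to 3.43 in the others. cd8a (ENSDARG00000044797), a co-receptor of cytotoxic T cells, stood at 1.499 in Low 5, 0 in High 4 and 0.737 in High 5, against 3.55 to 13.1 with a median of 6.25 in the others (log2 fold change -3.29, SE 0.696, adjusted p = 0.019). il7r (ENSDARG00000078970), the interleukin 7 receptor that lymphoid precursors need, stood at 8.95 in Low 5, 3.57 in High 4 and 3.56 in High 5, against 8.33 to 20.5 with a median of 14.96 in the others (log2 fold change -1.28, SE 0.27, adjusted p = 0.0169). Low 5 lay just inside the range of the others for il7r and below it for cd8a. ighm, the IgM heavy chain (-2.15), igic1s1, an immunoglobulin light chain constant region (-4.14), the T cell kinase ZAP70 (-1.42), the chemokine receptor CCR9 (-1.34), TCF7 (-0.85) and IKZF1 (-0.81) fell too. The list median was -1.23 at equal digestive score, where igic1s1 alone passed (adjusted p = 0.0476, with 0.136 in Low 5, 0 in High 4 and 0.0819 in High 5 against 0.274 to 2.58 with a median of 1.11 in the others, in CPM). Without Low 5, 5 passed and without High 4 none did.

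Other blood and vessel lists had fewer calls. Among 29 neutrophil and macrophage genes 4 fell and 1 rose (median -0.31), and the fallers were the leukocyte antigen ptprc (-0.97), the actin bundler LCP1 (-0.54), the scavenger receptor marco (-0.81) and one ID of MFAP4 (ENSDARG00000038683, -2.11). The ID that rose, ENSDARG00000090557 (0.93), carries the same symbol. Of 12 thrombocyte genes 3 fell, the adhesion receptors gp9 (-1.54) and GP1BB (-1.41) and the integrin activator FERMT3 (-0.76), and THBS1 rose (0.7998). The thrombocyte integrin itga2b did not pass (adjusted p = 0.229), and neither did the macrophage gene MPEG1 (0.0834) or the vessel receptor kdrl (0.537). Of 25 endothelial and lymphatic genes 3 fell, a share not far above the 8.2% of all genes. These were vwf (-0.96), SOX7 (-0.54) and sox18 (-0.403). All of these calls were lost at equal digestive score and without High 4.

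Some glia and myelin genes fell. Of 21 tested, 7 fell, 0 rose and 14 did not pass (median -0.43). mbpa (ENSDARG00000036186), myelin basic protein, stood at 619.8 in Low 5, 213 in High 4 and 449 in High 5, against 647 to 2091 with a median of 1314 in the others (log2 fold change -1.83, SE 0.33, adjusted p = 0.013). plp1b (ENSDARG00000011929), a proteolipid of the myelin sheath, stood at 214 in Low 5, 83.5 in High 4 and 159.5 in High 5, against 225 to 553 with a median of 403 in the others (log2 fold change -1.55, SE 0.27, adjusted p = 0.0106). For both, all 3 libraries lay below every other one, Low 5 only just. cldnk (-0.94), mag (-0.798), mbpb (-0.95), S100B (-1.03) and the glutamate transporter SLC1A2 (-0.82) fell with them. Of 54 neuron and synapse genes, 4 fell by small amounts, a share near the 8.2% of all genes. They were NRGN (-0.704), GABRB2 (-0.62), chga (-0.58) and SNAP25 (-0.53). The median of the neuron list was -0.15, and 0.016 at equal digestive score. Neither list kept a call at equal digestive score or without High 4, and 5 myelin and glia genes passed without Low 5.

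Some cell cycle genes rose. Of 54 tested, 21 rose, 0 fell and 33 did not pass, 51 had a fold change above 0, and the median was 0.92. TOP2A (ENSDARG00000024488), which untangles DNA in dividing cells, stood at 178 in Low 5, 154 in High 4 and 112 in High 5, against 43.9 to 137 with a median of 78.8 in the others (log2 fold change 1.18, SE 0.26, adjusted p = 0.0202). cenpe (ENSDARG00000063385), a motor of the kinetochore, stood at 63.4 in Low 5, 53.2 in High 4 and 38.6 in High 5, against 15.5 to 43.97 with a median of 26.9 in the others (log2 fold change 1.23, SE 0.25, adjusted p = 0.0164). High 5 lay within the range of the others for both. For TOP2A the overlap came from Control libraries: it was 123, 53.3, 137, 135 and 129 in Control 1 to 5, and 51.4, 54.8, 43.9 and 53.2 in Low 1 to 4. For 0 of the 54 genes did all 3 hbaa1-poor libraries lie above all others. TPX2 (1.16), CDC20 (1.05), the proliferation marker mki67 (1.12), CCNB1 (1.14) and the ribonucleotide reductase RRM1 (1.1001) rose. The median was 1.45 among Low libraries and 0.46 among High libraries, and 0.99 at equal digestive score, where no gene passed. No cell cycle gene passed without High 4 or without Low 5.

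About as many genes of the cholesterol synthesis list rose as did not pass. Of 27 genes tested, 14 rose, 0 fell and 13 did not pass, with a median of 1.26, and the mean log2 CPM was 4.32 to 5.41 in the hbaa1-poor libraries and 3.26 to 4.61 in the others. ldlra (ENSDARG00000029476), a receptor that takes up cholesterol-carrying particles, stood at 60.7 in Low 5, 87.9 in High 4 and 54.8 in High 5, against 18.4 to 47.1 with a median of 26.97 in the others (log2 fold change 1.49, SE 0.22, adjusted p = 0.00756). DHCR7 (ENSDARG00000103226), the enzyme of the last step, stood at 48.3 in Low 5, 63.9 in High 4 and 32.7 in High 5, against 15.4 to 32.8 with a median of 20.5 in the others (log2 fold change 1.18, SE 0.21, adjusted p = 0.0106). Both were highest in High 4 and lowest in High 5. The early enzyme HMGCS1 (2.37) and the later EBP (2.005), MSMO1 (1.93), LSS (1.84), SQLE (1.79) and SC5D (1.66) rose. ldlra passed without High 4 (adjusted p = 0.0472) and without Low 5 (adjusted p = 0.0318), and it was the only one of the list in each case. At equal digestive score the median was 1.02 and none passed (adjusted p = 0.0938 for ldlra).

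Digestive genes were high by level, and the number that passed depended on the tool. The median log2 fold change was 4.93 for 26 exocrine pancreas genes, 2.702 for 58 liver genes and 3.55 for 45 intestine genes, and 1, 1 and 8 of them rose with edgeR. DESeq2 called 16, 9 and 26 of them, and limma voom 1, 1 and 6. In edgeR 22, 16 and 34 had an unadjusted p below 0.05, against 27.0% of all genes. The trypsin gene prss1 held 1496 in Low 5, 2084 in High 4 and 2221 in High 5, against 0.9899 to 3672 with a median of 6.74 in the others, and its adjusted p was 0.139. The liver gene fabp10a held 419 in Low 5, 622 in High 4 and 607 in High 5, against 0.159 to 597 with a median of 16.2 in the others, with adjusted p = 0.369. Control 2 alone of the others lay above all 3 for prss1, while High 4 and High 5 lay just above the highest other library for fabp10a. The intestinal FABP2 held 20.8 in Low 5, 20.7 in High 4 and 13.4 in High 5, against 0.0396 to 12.5 with a median of 0.174 in the others, and did not pass (adjusted p = 0.0722). The genes that passed were mostly brush border and absorption genes: SLC15A1 (ENSDARG00000100315), a peptide transporter, stood at 5.77 in Low 5, 8.91 in High 4 and 12.8 in High 5, against 0 to 9.29 with a median of 0.328 in the others (log2 fold change 4.46, SE 0.97, adjusted p = 0.0219), and dpp4 (ENSDARG00000079420), a peptidase, stood at 12.2 in Low 5, 19.8 in High 4 and 24.9 in High 5, against 2.099 to 11.7 with a median of 2.79 in the others (log2 fold change 2.32, SE 0.42, adjusted p = 0.0134). The count of 0 for SLC15A1 was in Low 4, where it allows up to 0.1099 CPM. SLC26A3 (3.68), RBP2 (3.49), the brush border villin VIL1 (2.94), cldn15a (3.26), MELTF (2.04) and SLC5A11 (1.198) rose too. In the pancreas PTF1A, a factor of its acinar cells, rose (1.02), and in the liver CYP7A1, the rate-limiting enzyme of bile acid synthesis (5.37). These lists built the score and are not counted at equal score.

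Genes of gut, bile and muscle were among the largest rises. Among passing genes whose log2 CPM averaged 1 or more over the libraries and that have an informative symbol, the chitin synthase chs1 (4.67) came first, followed by the bile acid enzyme CYP8B1 (4.52), one troponin I ID (ENSDARG00000029069, 4.45), zanl (4.38), the myosin light chain MYL11 (ENSDARG00000002589, 4.37), the phospholipase plb1 (4.27), the cadherin-related cdhr5b of the brush border (4.25), igfn1.3 (3.82), RBP2 and FAM151A (3.27). RBP2 is one of the genes of the score. At equal digestive score the other log2 fold changes ran from 0.999 (cdhr5b) to 2.64 (igfn1.3), and none passed. Without Low 5 none of the 10 passed, and the troponin I ID (0.95), MYL11 (1.17) and igfn1.3 (1.25) had much smaller log2 fold changes. Without High 4 igfn1.3 alone passed (adjusted p = 0.0498). By the same rule, fabp1b.2 and ccl27b were among the 10 largest falls. fabp1b.2 (ENSDARG00000103398), a fatty acid binding protein, stood at 0.545 in Low 5, 0.279 in High 4 and 0.696 in High 5, against 14.1 to 317 with a median of 94.6 in the others (log2 fold change -7.78, SE 1.34, adjusted p = 0.013). It fell although the digestive lists were high, and its log2 fold change at equal digestive score was -7.24 (adjusted p = 0.0897). The chemokine ccl27b (-4.35) held 0.545 in Low 5, 0 in High 4 and 0.655 in High 5, against 3.45 to 12.6 with a median of 6.38 in the others. It passed without High 4 (adjusted p = 0.0218) and without Low 5 (adjusted p = 0.0318).

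Skeletal muscle genes moved in both directions, and troponin I IDs were among both. Of 58 tested, 10 rose and 3 fell (median 0.15). Without Low 5, 1 rose and 3 fell, and the list median was 0.91 among Low libraries and -0.54 among High libraries. The troponin I ID ENSDARG00000029069 stood at 1468 in Low 5, 235 in High 4 and 221 in High 5, against 4.69 to 217 with a median of 60.3 in the others (log2 fold change 4.45, SE 1.14, adjusted p = 0.0374). A second troponin I ID, ENSDARG00000013752, went the other way, with 47.8 in Low 5, 14.1 in High 4 and 25.1 in High 5 against 97.5 to 509 with a median of 179 in the others (log2 fold change -2.805, SE 0.601, adjusted p = 0.0209). Low 5 was far above the other two for the first, while High 4 was lowest for the second. smyhc1 (ENSDARG00000099959), a slow muscle myosin, stood at 43.8 in Low 5, 33.1 in High 4 and 28.2 in High 5, against 10.9 to 22.1 with a median of 15.3 in the others (log2 fold change 1.25, SE 0.18, adjusted p = 0.00756), and it was the only gene of the list that passed without High 4 (adjusted p = 0.041). The fast myosins myhz1.1 (1.81), myhz1.2 (1.84), myhz1.3 (2.14) and myhz2 (0.83), the calcium pump atp2a1 (0.82) and both actins annotated ACTA1 (1.32 and 3.07) rose. The copies are close in sequence, so the split of reads between them is uncertain. None passed at equal digestive score. Of 35 heart genes 3 passed, a share near the 8.2% of all genes, and they were higher: actc1a (0.99), MYBPC3 (0.71) and MYH6 (0.49). Without Low 5 none of the list rose and 1 fell, and its median was 0.502 among Low and -0.26 among High libraries. None passed at equal digestive score, and myl7, annotated MYL7, did not pass within diet (adjusted p = 0.915).

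Epidermal genes gave 4 higher and 1 lower of 42, a share not far above the 8.2% of all genes. The keratins cyt1 (1.203), cyt1l (1.86) and krt92 (1.72) rose, as did the ion pump subunit ATP1B1 (0.62), and the calcium-binding icn fell (-0.81). cyt1 (ENSDARG00000092947) stood at 1037 in Low 5, 1671 in High 4 and 1108 in High 5, against 326 to 896 with a median of 594 in the others, with no overlap. In the kidney list 3 of 25 rose and 0 fell, again a share not far above the 8.2% of all genes. The risers were the pump subunit atp1a1a.4 (1.88) and the factors PAX8 (0.83) and WT1 (2.39). Clock genes gave 4 higher and 2 lower of 34, the 2 being CRY1 (-0.66) and nfil3-6 (-0.95) and the risers cry5 (0.66), nr1d4b (0.61), nfil3-5 (0.56) and CLOCK (0.39). All 14 of these calls were lost at equal digestive score and without High 4.

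Stress and housekeeping lists gave few calls. Of 35 genes of p53 and apoptosis 3 rose, a share near the 8.2% of all genes, among them the cell cycle inhibitor cdkn1a (0.87) and sesn3 (0.49). The list median was -0.196, and 23 of the 35 had a fold change below 0. sesn3 held 53.1 to 69.5 in the 3 libraries, inside the range of the others (33.7 to 73.4). Of 41 antioxidant genes 3 passed, a share near the 8.2% of all genes. Catalase CAT rose (0.84), and prdx5 (-0.52) and SOD3 (-0.77) fell. Among 65 nuclear genes of the respiratory chain 4 passed, again a share near the 8.2% of all genes. COX5B (-0.57), SDHD (-1.01) and ndufb3 (-0.42) fell, and NDUFA8 passed as higher (2.38) through Low 5 alone. It held 11.9 in Low 5, 0.975 in High 4 and 0.655 in High 5, against 0.315 to 1.45 with a median of 0.747 in the others, and its log2 fold change without Low 5 was 0.34 (adjusted p = 0.721). None of the 13 mitochondrially encoded genes passed with edgeR, while DESeq2 and limma voom called 5 and 8. In edgeR 8 of the 13 had an unadjusted p below 0.05, against 27.0% of all genes. All 13 folds were below 0 (median -0.35). Ribosomal proteins of the cytosol gave 1 lower call of 75, proteasome genes 1 lower of 43 and chaperones 2 lower of 45. Both chaperone calls were IDs of CRYAB, which are also counted among the lens crystallins above. Immediate early genes gave 1 lower of 42 and interferon genes 2 lower of 29. Pigment cell genes gave 1 of 31 in each direction and glucocorticoid response genes 1 of 26 in each direction. Genes of ER stress gave 1 higher call of 30 and swim bladder 1 lower of 9. Endocrine pancreas gave 0 of 10 and yolk and hatching 0 of 6, and DESeq2 called 0 and 2 there. In edgeR they had 2 and 3 genes at an unadjusted p below 0.05, against 27.0% of all genes. None of the lists named in this paragraph kept a call at equal digestive score with edgeR.

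The loss of calls at equal digestive score depended on the tool. Of the 38 crystallins, 21 had an unadjusted p below 0.05 in that fit with edgeR, and DESeq2 called 15 and limma voom 9. For the 27 cholesterol genes these counts were 19, 6 and 1, for the 54 cell cycle genes 41, 7 and 0, and for the 40 bone and cartilage genes 20, 8 and 5. The 21 glia and myelin genes gave 7, 3 and 4, the 15 lymphoid genes 9, 4 and 2, and the 18 red cell membrane genes 7, 3 and 3. Across all 21872 genes 3934 had an unadjusted p below 0.05 in this fit, and DESeq2 and limma voom called 833 and 396.

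**Figure D5:**
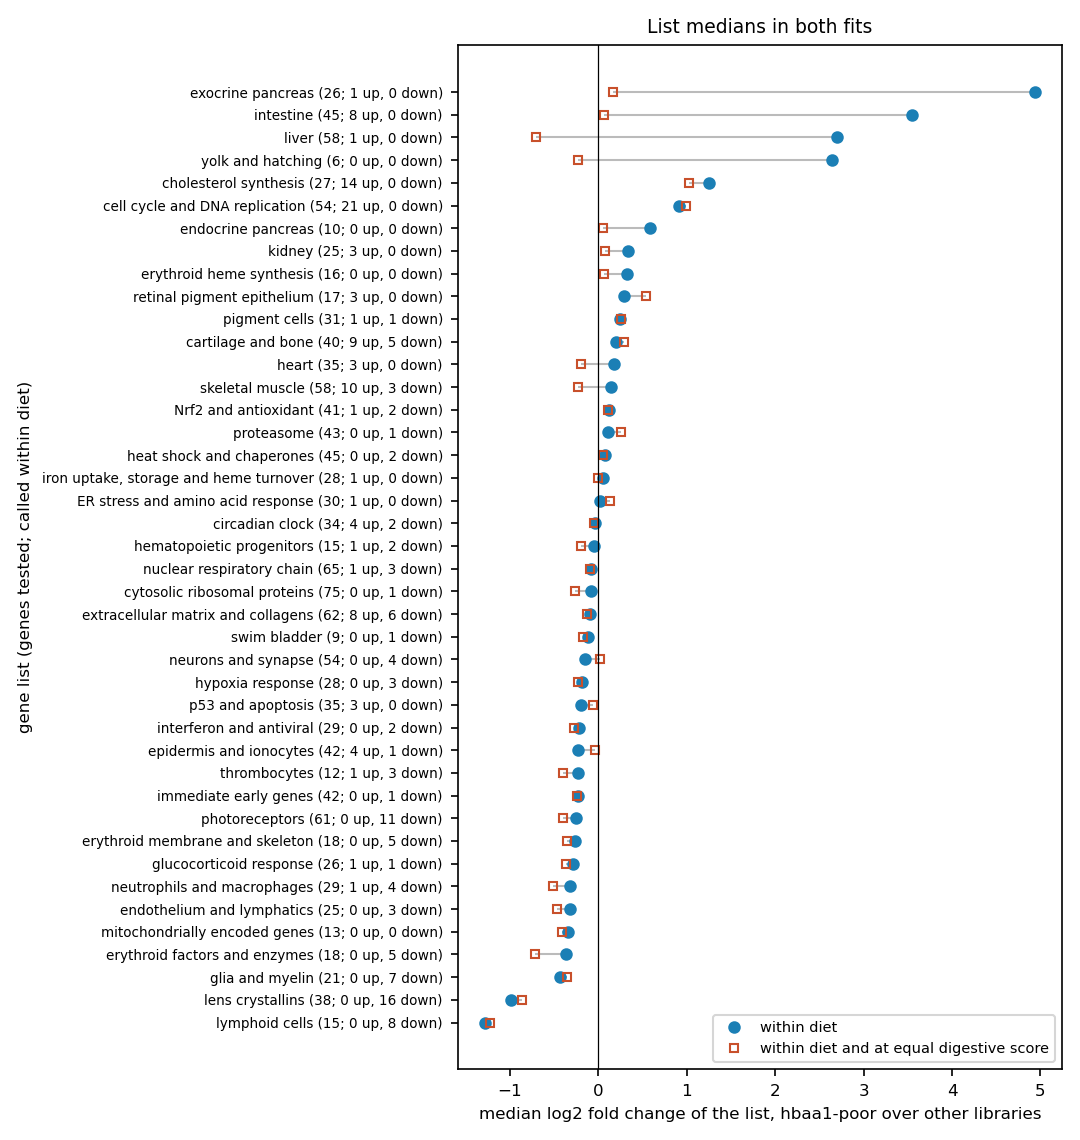
Median log2 fold change (hbaa1-poor over other libraries) of each gene list within diet (filled circles) and within diet at equal digestive score (open squares); labels give the genes tested and those called higher and lower within diet. The pancreas, intestine and liver medians of 4.93, 3.55 and 2.702 within diet are the highest, and since these lists built the score, their open squares are near 0 or below by construction and carry no comparison. The lymphoid median is -1.28 within diet and -1.23 at equal score, and the lens median -0.98 and -0.86.

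Low 5 and the 2 High libraries can be set against separate libraries. Low 5 against Low 1 to 4 gave 2383 calls (10.8%), with a single library on one side whose spread is taken from the others. High 4 and High 5 against High 1 to 3 gave 0 calls (0.0%), with a lowest adjusted p of 0.0572 and 3764 genes at an unadjusted p below 0.05. Of the 2383 genes, 1883 (79.0%) had the same direction among the High libraries, against 61.6% of all 21998 genes. The genes named next passed in the fit over all 3 libraries, so their shared direction follows in part from that choice. By genes, opn1mw4 had a log2 fold change of -6.27 in High and -5.38 in Low, CRYBB3 -8.19 and -7.33, EPOR -1.32 and -1.01, and ldlra 1.55 and 1.36. For other genes the sizes were further apart, as in bglap with -6.59 and -3.503.

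A test of the difference between the High and the Low effect, added after the data were seen, passed for 95 genes (0.432%), 8 higher and 87 lower in High. The Low effect is that of 1 library, Low 5, so a difference between the diets and a deviation of that library cannot be told apart. The named genes among them were muscle genes and NDUFA8. ACTA1 (ENSDARG00000055618), a skeletal actin, stood at 1845 in Low 5, 631 in High 4 and 422 in High 5, and its effect was 5.07 in Low and 0.46 in High (difference -4.58, SE 0.76, adjusted p = 0.0348). igfn1.3 (ENSDARG00000097613) stood at 89.5 in Low 5, 10.3 in High 4 and 9.71 in High 5, with 5.94 in Low and 1.23 in High (adjusted p = 0.0359). MYBPC3 differed by -1.23 (adjusted p = 0.0456) and NDUFA8 by -3.75 (adjusted p = 0.0332). In each of these Low 5 held the highest level of the 3 libraries.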

How the data were processed

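RNA of whole larvae was sequenced as paired reads of 100 bp from samples with an RNA integrity number above 8, per the labels' protocols. The authors deposited one table of raw read counts for 32520 genes in 15 libraries. Its 15 trailing lines that name no gene were left out. Trimming with Trimmomatic, quality checks with FastQC and MultiQC, and DESeq2 are named in the submitters' processing notes, as are the builds GRCz11 and mm10, and which build served the alignment is not stated. Aligner, counter, gene annotation and strandedness: not given in the sources used here. Genes that overlap on opposite strands may therefore share reads. Symbols came from a table of gene IDs and matched 29201 IDs. Coordinates and sequences were not used here.

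Libraries were grouped by their titles. Counts were tested in R 4.3.3 with edgeR 4.0.16 (filterByExpr, TMM factors, robust quasi-likelihood fit of diet and the hbaa1-poor term, Benjamini-Hochberg adjustment over the 22012 genes kept, threshold 0.05). Only this fit within diet was also run on simulated counts. Apart from the changed genes, the simulated libraries differed in size and random spread only, so the digestive differences above are not covered. Globins (16 genes, 13 kept) were left out of the counts of calls. A second fit added the digestive score, and its 127 genes were then left out as well. Depth was 21168758 to 59896860 counts, and the limit from a count of 0 uses 3 counts and covers counting error only. The biological coefficient of variation was 31.7%.

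The hbaa1-poor libraries, the 43 gene lists and the tests were chosen with earlier results of these data known. Genes were named by rule: the 10 largest rises and 10 largest falls among passing genes whose log2 CPM averaged 1 or more and whose symbol is informative (symbols that start with CR, BX or FP, as clone names do, were left out, and with them crystallins written in capitals such as CRYBB3), for every list with 3 or more passing members up to 4 of them by smallest p, the 5 largest each way in the second fit, and 27 readouts, of which gata1a, hamp, mpx and ins were not tested. Other list members that passed, and genes passing in both fits, were named after their values were seen. Some genes that passed are not reported here by name. Of 1533 names written into the lists, 125 matched no gene. No 2 libraries of the same diet agreed within sampling noise, and pairs across diets were not compared. Alternatives were RLE factors, library totals, other filters, DESeq2 1.42.0, limma 3.58.1 voom, a replicate block, other libraries or predictors, and leaving out each library.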

Additional observations from a re-analysis of the deposited data

Results flagged for a closer look

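Within Control 1 to 5 and Low 1 to 4, the hbaa1-poor libraries left aside, 380 groups of 4 or 5 values were checked for a library whose gap to its nearest neighbour was a large share of the group's range (above Dixon's 95% critical value for that number of libraries). Chance flags about 1 in 20 such groups, and 32 were flagged.

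Control 1 stood high for lens genes and some others: crygm4 (gap 0.919 of the range), crygs3 (0.909), CRYBB3 (0.783), bglap (0.828), fabp1b.2 (0.745), TNNI2 ENSDARG00000013752 (0.717), kel (0.737) and the mean of the p53 and apoptosis list (0.853). Control 2, the digestive-rich library with 726 CPM of hbaa1, stood apart for zanl (0.8599), plb1 (0.813), igfn1.3 (0.738), zgc:85932 (0.7904), CNGA1 (0.7804), cenpe (0.964), TOP2A (0.8292) and the photoreceptor mean (0.754). It was high for all of these but igfn1.3, cenpe and TOP2A, where it was low. Control 3 was low for DCN (0.764), and Control 4 was apart for MELTF (0.791) and ACTA1 ENSDARG00000036371 (0.738). Control 5 was apart for depth (0.842, at 59896860 counts), prdx5 (0.721) and the heart mean (0.777).

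Among the Low libraries, Low 1 was apart for fabp10a (0.9696) and the liver mean (0.846). Low 2 was apart for kel (0.854), cenpe (0.8998) and sesn3 (0.884). Low 3 was apart for MYH6 (0.845), cyt1l (0.962) and SLC4A1 ENSDARG00000012881 (0.855), and Low 4 for smyhc1 (0.9298) and the epidermal mean (0.905).

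The effect of the hbaa1-poor libraries differed between High and Low by the test of the difference itself (edgeR, adjusted over all genes; the Low effect is that of Low 5 alone) for igfn1.3 (-4.69, log2), MYBPC3 (-1.23), NDUFA8 (-3.75) and ACTA1 ENSDARG00000055618 (-4.58).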

How the results depend on the processing

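Within diet, the count of 1805 genes stayed within 1.5 times under RLE factors, library totals, either other filter, voom, diet left out, Control left out, the continuous predictor and Low libraries alone (1379 to 2383). It was 3255 with DESeq2, 674 at 2-fold or more, 78 at adjusted p below 0.01, and 0 for High libraries alone. Leaving out one library gave 78 (without High 4) to 2338 (without Control 2). At equal digestive score, the count of 19 was 37 with library totals, 833 with DESeq2, 396 with voom, 345 with hbaa1 as a continuous predictor, 4 with the pancreas list alone as the score and 0 at adjusted p below 0.01. Leaving out one library gave 0 (without Control 5, High 1 or High 4) to 122 (without Control 1), with 66 without High 3, 12 without Control 2 or High 5, 9 without Low 1, 7 without Control 4, 4 without Low 4, 3 without Low 5 or High 2 and 1 without Low 3. The cause of these differences was not tested. Same-numbered libraries deviated together in part (correlations -0.54 to 0.54, 9 of 15 over 0.1, 6 libraries closest to their own number). Pairs numbered 1 (0.23 to 0.32) and 3 (0.23 to 0.54) were all above 0, and those numbered 2, 4 and 5 were of both signs. Whether the numbers mark a shared batch or clutch cannot be told from these values, and the main fit has no replicate block. With a replicate block both fits gave 0 calls, with 2939 and 1058 genes at an unadjusted p below 0.05 (edgeR, the only tool run with the block). No named gene changed sign with a call. Median shifts of all genes between scalings were below 0.1 (log2). In High 4 a count of 0 allows up to 0.139 CPM, and lower levels were not detectable there at this depth.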
